A study of Bos indicus with 8 samples.

Results

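Caspases are proteases that dismantle a cell from within, and this account follows 8 genes that start, carry out or restrain that process: CASP8, CASP9, CASP6, APAF1, CYCS, DIABLO, XIAP and CFLAR. Every array probe whose gene symbol in the platform annotation is one of these was taken, which gave 11 of 43794 gene probes and 8 of 15229 named genes. CASP9 had 3 probes, CFLAR 2 and the other 6 genes 1 each. All 11 probes passed the filter on dim probes, as did 34912 of all gene probes.

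RNA came from blastocysts of Bos indicus produced in vitro and graded between 144 and 156 h after insemination. Vitrified embryos were cooled on a Cryotop, a thin strip that holds a very small volume, in 15% ethylene glycol, 15% dimethylsulfoxide and 0.5 M sucrose, stored in liquid nitrogen (30 min or longer), then warmed and cultured for 4 h. Control embryos waited on the bench in holding medium instead and had the same 4 h of culture, and in both groups only embryos of normal appearance after culture were kept, in pools of 10. Each of 8 two-colour arrays on 2 slides carried 1 vitrified and 1 control pool, labelled with Cy5 (red) and Cy3 (green), and neighbouring areas of a slide had opposite dye orientations.

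There are 2 main routes to caspase activation. In the death receptor route, an occupied receptor gathers caspase 8, and CFLAR (c-FLIP), a relative of caspase 8 without protease activity, competes for the same place. In the mitochondrial route, cytochrome c (CYCS) leaves the mitochondrion and binds APAF1, which assembles into a wheel, the apoptosome, that activates caspase 9. XIAP blocks some active caspases, though not all, and DIABLO (Smac), also released from mitochondria, binds XIAP and frees them. Activation is largely a matter of protein cleavage and release, so transcript levels describe the supply of these proteins and not the activity of the enzymes. In the RefSeq gene table of a Bos indicus assembly, NIAB-ARS_B.indTharparkar_mat_pri_1.0, all 8 symbols were found. CASP8 and CFLAR are near neighbours on chromosome 2, with 2 uncharacterised loci between them. CASP9 is on chromosome 16, CASP6 on 6, APAF1 on 5, CYCS on 4, DIABLO on 17 and XIAP on the X chromosome.

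The design text speaks of 4 pools of each kind in a dye swap. The labels do not say which arrays share pools, and neighbouring areas were taken as a swap and averaged, after turning the sign, into 1 of 4 pair values of log2 vitrified over control. Pair 1 is areas 1 and 2 of the first slide, pair 2 areas 3 and 4 of the first slide, pair 3 areas 1 and 2 of the second slide and pair 4 areas 3 and 4 of the second slide. With the dye effect removed, ratios of neighbouring areas correlated across probes at a mean r of 0.834. Arrays that share a replicate number in the labels correlated at 0.0986, so those numbers did not mark the swaps. Of the cell type markers, 8 of 8 of trophectoderm and 3 of 4 of inner cell mass were above background on at least 7 arrays in both channels. By the same rule 4 of 6 cumulus, 2 of 5 oocyte and 1 of 4 sperm markers passed. Apart from area 1 of the second slide, 72.3% to 79.2% of all probes were above background on an array. These counts therefore do not identify a cell type. In whole embryos, fewer cells of a type and less RNA per cell cannot be told apart.

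None of the 11 probes passed the test. In limma over the 4 dye-swap pairs, 0 of 11 had a Benjamini-Hochberg adjusted p under 0.05, the range being 0.582 to 0.997, and the background was 0% of the 34912 probes tested. At an unadjusted p under 0.05 there were 2 of 11, against 7.7% of all probes: DIABLO was lower, as were 4.41% of all, and probe 1 of CASP9 was higher, as were 3.29%. Normalized vitrified and control levels overlapped for 11 of 11 probes, and 0.352% of all probes tested showed no overlap. Overlap of these levels ignores which pools shared an array, so it says little about the ratios. The median log2 ratio of the 11 probes was -0.015, against 0.0033 over all probes tested, and 6 of 11 were below 0, against 47.9% of all. Mean ratios ran from -0.49 for CASP8 to 0.13 for a probe of CASP9. An absolute mean above 0.2 was found for 3 of 11 (CASP8, a probe of CASP9, and APAF1), against 11.2% of all probes, at a limit chosen after the values were seen. That share includes many dim probes, whose ratios spread less. Among probes as bright as APAF1, the 5th and 95th percentiles were -0.34 and 0.30, and its mean of -0.24 lay within them.

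**Figure D1:**
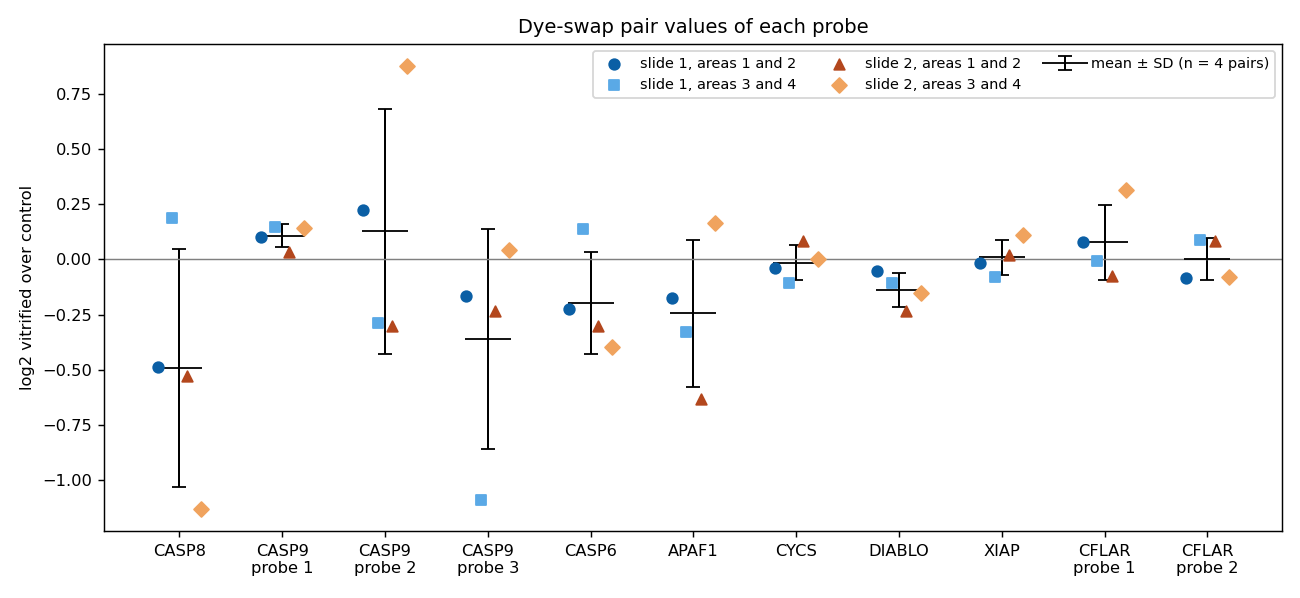
Log2 vitrified over control for each of the 11 probes, on the vertical axis, with 1 symbol per dye-swap pair and the mean ± SD over the 4 pairs. CASP8 runs from -1.13 to 0.19 over the pairs, and of the 11 probes only DIABLO and CASP9 probe 1 keep 1 sign in all 4 pairs of these values.

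CASP8 encodes the initiator of the death receptor route. Its probe (EMBV3_25242) read 128, 170 and 295 intensity units (lowest, median and highest of 8 arrays) in vitrified pools, against 154, 217 and 270 in control pools. These units, here and for the other probes, are spot intensities before normalization, with both dyes in each group. The dyes differ in scale, so the units show brightness and are no comparison of the groups. On area 2 of the first slide, 245 vitrified and 241 control units went with a log2 ratio of -0.85. In normalized log2 levels, vitrified pools ran from 6.37 to 8.15 and control pools from 7.10 to 8.04, so the groups overlapped. The pair values were -0.49, 0.19, -0.53 and -1.13, with a mean log2 ratio of -0.49 ± 0.54 (SD, n = 4 pairs), which is 0.711-fold. Vitrified pools were thus lower in 3 pairs and higher in pair 2. The 95% interval of the log2 ratio ran from -1.06 to 0.077 (limma adjusted p = 0.698), and an exact sign-flip test over the 4 pairs gave p = 0.25, where the smallest possible is 0.125.

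The signal of CASP8 was dim on the slide where the ratio was lowest. The background limit of an array and channel was set from its 153 negative control spots, at 2 SD over their mean log2 intensity. CASP8 passed that limit in the vitrified channel on 4 of 8 arrays, all on the first slide, and in the control channel on 7 of 8. With a limit from the median and MAD (median absolute deviation) of the same spots, it passed on 6 of 8 and 8 of 8. On the second slide its mean log2 ratio was -0.83, and on the first -0.15. The value without pair 4 was -0.28, without pair 2 it was -0.72, and without any background correction it was -0.36. The red channel also read higher than the green by 0.40 log2 units on average, which the swap removes from the pair values.

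Apart from this dye offset, both dye orientations put pair 2 of CASP8 highest and pair 4 lowest. The error of a pair value, taken as the SD over pairs of the signed distance of the swapped array from its pair mean, was 0.10, against an SD of 0.54 between pairs. Over all probes tested the medians of these quantities were 0.063 and 0.13. Swapped arrays also share a slide and neighbouring positions, so pool, slide and position cannot be told apart in the spread between pairs.

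CASP9, the initiator of the mitochondrial route, had 3 probes, whose values differed. Probe 3 (EMBV3_15406) read 425, 663 and 1006 units in vitrified pools, against 562, 869 and 1051 in control pools. Its pair values were -0.16, -1.09, -0.23 and 0.041, with a mean log2 ratio of -0.36 ± 0.50 (SD, n = 4 pairs). Pair 2 carried most of that mean, and without it the mean was -0.12. The groups overlapped, and the test was not passed (limma adjusted p = 0.773).

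Probe 2 of CASP9 (EMBV3_06676) read 432, 730 and 992 units in vitrified pools, against 428, 653 and 957 in control pools. The pair values were 0.22, -0.29, -0.30 and 0.88, with a mean log2 ratio of 0.13 ± 0.56 (SD, n = 4 pairs; limma adjusted p = 0.942). The direction therefore changed from pair to pair, and without pair 4 the mean was -0.12. Its 2 arrays per pair agreed more closely than those of any other of the 11 probes. In pair 4, the array with the vitrified pool in Cy5 gave 0.91 and the swapped array 0.85. In pair 3 they gave -0.29 and -0.32. The swap error of this probe was 0.016 against an SD of 0.56 between pairs.

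Probe 1 of CASP9 (EMBV3_02441) lay close to background, at 112 to 253 units in vitrified pools and 114 to 225 in control pools, and was above the limit on 7 of 8 arrays in each channel. Its pair values were 0.10, 0.15, 0.036 and 0.14, all above 0, where 8.44% of all probes tested were above 0 in all 4 pairs. The mean log2 ratio was 0.11 ± 0.052 (SD, n = 4 pairs; limma adjusted p = 0.628). In the authors' deposited table this probe was below 0 in 2 of 4 pairs and its mean was 0.0053, and without background correction it was 0.049. Single arrays were less uniform, with 3 of 8 below 0. In pair 2, probes 2 and 3 of CASP9 stood at -0.29 and -1.09 and probe 1 at 0.15. In pair 4 they stood at 0.88, 0.041 and 0.14. Which part of the transcript each probe reads was not analysed here, so no single value is given for CASP9.

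**Figure D2:**
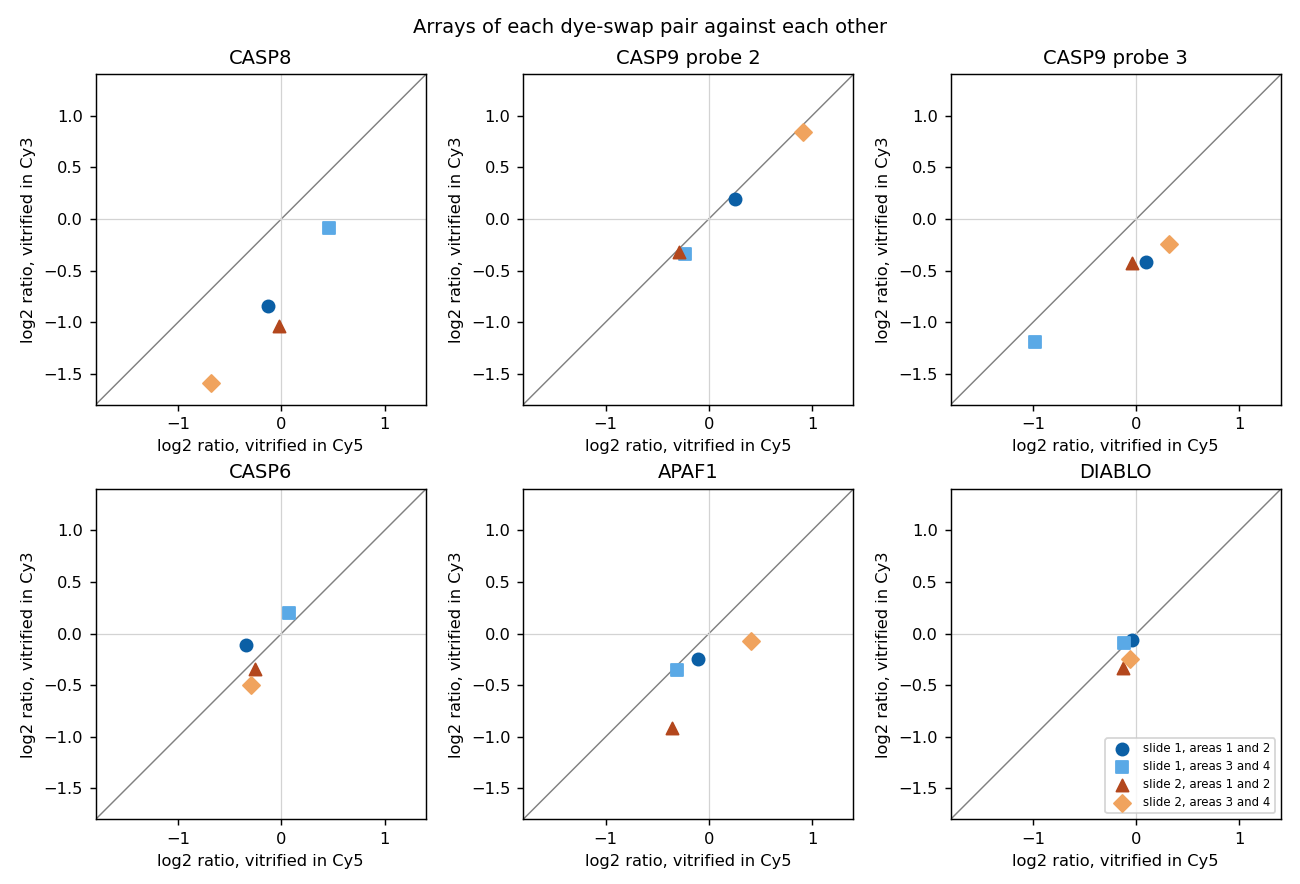
Log2 vitrified over control on the array with the vitrified pool in Cy5 (horizontal axis) against the swapped array with it in Cy3 (vertical axis), for 6 probes; each symbol is 1 dye-swap pair and the line marks equal values. The pairs of CASP9 probe 2 lie along the line from about -0.3 to 0.9, and those of CASP8 lie below it, since red read higher than green for that probe.

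CASP6 encodes an effector caspase, best known for cutting nuclear lamins. Its probe (EMBV3_12455) read 2923, 3522 and 5190 units in vitrified pools, against 3155, 4184 and 5844 in control pools. The pair values were -0.23, 0.14, -0.30 and -0.40, with a mean log2 ratio of -0.20 ± 0.23 (SD, n = 4 pairs), which is 0.872-fold. Vitrified pools were lower in 3 of 4 pairs and on 6 of 8 arrays, and the groups overlapped. The interval ran from -0.45 to 0.059 (limma adjusted p = 0.743). The mean was -0.35 on the second slide and -0.045 on the first. Without pair 2 it was -0.31, and without pair 4 it was -0.13.

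CASP6 and CASP8 ranked the 4 pairs alike, with pair 2 highest, then pair 1, pair 3 and pair 4. Among transcripts of other cell types, LUM, a matrix protein listed as a cumulus marker, had the same ranking, at -0.21, 0.82, -0.73 and -2.29 in pairs 1 to 4. The other 5 cumulus markers did not rank the pairs in this order, and the median of the 6 was -0.085, 0.089, -0.062 and 0.015. Of the 6 markers, 2 were above background on all arrays in both channels, as were 4 of 8 trophectoderm and 2 of 4 inner cell mass markers. None of the 6 was at background on every array. Their summed intensity ran from 1200 to 2417 units in vitrified pools and from 1374 to 1992 in control pools. Markers of the embryo's own cell types also had values that varied from pair to pair. The 8 trophectoderm markers had medians of 0.066, 0.18, -0.048 and 0.28 in pairs 1 to 4. At the brightest probe of each gene their means ran from -0.076 for TEAD4 to 0.57 for KRT18. KRT8, a keratin of that layer, averaged 0.45 ± 0.29. The 4 inner cell mass markers had medians of -0.24, 0.019, 0.069 and -0.50, and NANOG, a pluripotency factor, averaged -0.49 ± 0.25 (limma adjusted p = 0.492). SALL4 averaged -0.23 ± 0.47, SOX2 -0.12 ± 0.23 and POU5F1 0.080 ± 0.086. The 3 primitive endoderm markers had -0.24, -0.21, 0.088 and -0.33, and PDGFRA, a receptor kinase, averaged -0.86 ± 0.43 (limma adjusted p = 0.490) at its brightest probe. The other PDGFRA probes were at 0.059 and -0.31, while GATA4 averaged -0.095 ± 0.33 and SOX17 0.039 ± 0.057. In pair 4, where CASP6 and CASP8 were lowest, the inner cell mass median was also at its lowest and the trophectoderm median at its highest. Pair 2, where both genes were highest, was not the reverse. The trophectoderm median was again high there, at 0.18, and the inner cell mass median was 0.019, below its 0.069 in pair 3. The part of any of these cells in the values of CASP6 and CASP8 was not tested.

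APAF1 encodes the scaffold of the apoptosome. Its probe (EMBV3_39439) read 477, 682 and 816 units in vitrified pools, against 641, 749 and 950 in control pools. The pair values were -0.18, -0.33, -0.64 and 0.17, with a mean log2 ratio of -0.24 ± 0.33 (SD, n = 4 pairs), which is 0.844-fold. Vitrified pools were lower in 3 of 4 pairs and on 7 of 8 arrays, although the ranges of normalized levels overlapped. The interval ran from -0.60 to 0.11 (limma adjusted p = 0.773). Without pair 3 the mean was -0.11, and without pair 4 it was -0.38.

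APAF1 ranked the pairs in another order than CASP6 and CASP8, with pair 4 highest, then pairs 1, 2 and 3. Probe 2 of CASP9 and the first probe of CFLAR had the same ranking as APAF1. In pair 4, where CASP8 and CASP6 had their lowest values, APAF1 (0.17), probe 2 of CASP9 (0.88) and the first CFLAR probe (0.32) had their highest. With 4 pairs these rankings are a description only.

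CYCS, cytochrome c, is both an electron carrier of the respiratory chain and the trigger of the apoptosome. Its probe (EMBV3_37293) was at the 99.9th percentile of mean intensity among gene probes, with 29897, 36072 and 38331 units in vitrified pools and 31888, 36400 and 38150 in control pools. The pair values were -0.037, -0.11, 0.083 and 0.00088, with a mean log2 ratio of -0.015 ± 0.079 (SD, n = 4 pairs; limma adjusted p = 0.969). The interval ran from -0.13 to 0.10. Its spots stood at 69.5% to 95.1% of the brightest spot of their array and channel in vitrified pools and at 78.9% to 94.6% in control pools, so they lay near the top of the scale. Mammalian genomes also carry processed copies of CYCS, and whether the probe separates them was not analysed here.

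DIABLO, the antagonist of XIAP, had the smallest SD between pairs of the 6 probes above background on all arrays. Its probe (EMBV3_33225) read 994, 1114 and 1413 units in vitrified pools, against 1100, 1256 and 1460 in control pools, and was above background on all 8 arrays in both channels. The pair values were -0.054, -0.11, -0.24 and -0.15. All 4 pairs and all 8 arrays were below 0, where 7.49% of all probes tested were below 0 in all 4 pairs. The mean log2 ratio was -0.14 ± 0.077 (SD, n = 4 pairs), which is 0.909-fold, with an interval from -0.25 to -0.022 (limma adjusted p = 0.582). The exact sign-flip test gave p = 0.125, the smallest that 4 pairs allow. In the authors' deposited table the mean was -0.12 and pair 1 stood at 0.035, so 3 of 4 pairs were below 0 there. Over the 17 alternatives the mean ran from -0.21 to -0.081.

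**Figure D3:**
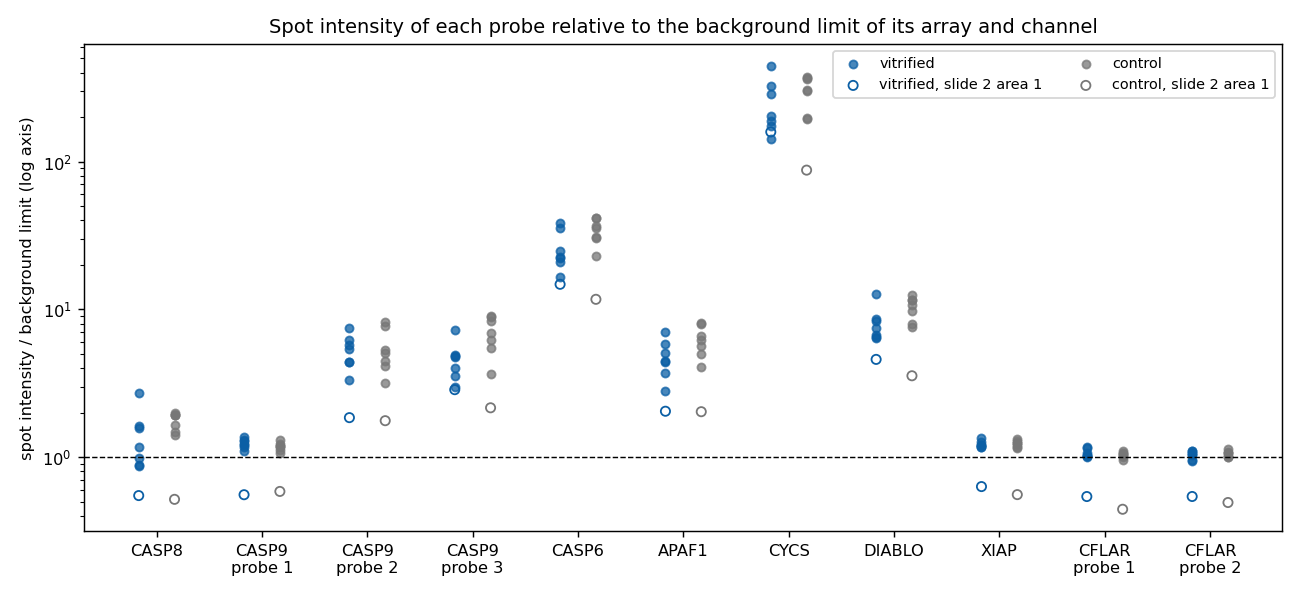
Spot intensity divided by the background limit of its array and channel (log axis) for each probe, vitrified pools left and control pools right, 8 arrays each; the dashed line is the limit, and open symbols are area 1 of the second slide, where a single bright negative control raised the limit. CASP6, CYCS, DIABLO, APAF1 and CASP9 probes 2 and 3 lie above the limit on all arrays, and XIAP and both CFLAR probes lie close to it.

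The inhibitors had mean ratios close to 0, on signals close to background. XIAP (EMBV3_03370) read 104, 181 and 245 units in vitrified pools, against 120, 153 and 214 in control pools, and was above the limit on 7 of 8 arrays in each channel. Its pair values were -0.014, -0.078, 0.022 and 0.11, with a mean log2 ratio of 0.011 ± 0.079 (SD, n = 4 pairs; limma adjusted p = 0.979) and an interval from -0.11 to 0.13. The sign of this mean turned in 3 of 16 alternatives.

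The first CFLAR probe (EMBV3_07116) read 87.8 to 215 units in vitrified pools and 108 to 175 in control pools, and passed the limit on 7 arrays where vitrified and 5 where control RNA was read. Pair values were 0.079, -0.0068, -0.073 and 0.32, with a mean log2 ratio of 0.079 ± 0.17 (SD, n = 4 pairs; limma adjusted p = 0.888). Without pair 4 the mean was -0.00044, and in the authors' deposited table it was -0.074. The second CFLAR probe (EMBV3_30430) passed the limit on 5 arrays for vitrified and 7 for control RNA. Pair values were -0.084, 0.090, 0.082 and -0.080, with a mean log2 ratio of 0.0021 ± 0.097 (SD, n = 4 pairs; limma adjusted p = 0.997). For XIAP and CFLAR, the median intensity was between 1.02 and 1.23 times the limit in either group.

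**Figure D4:**
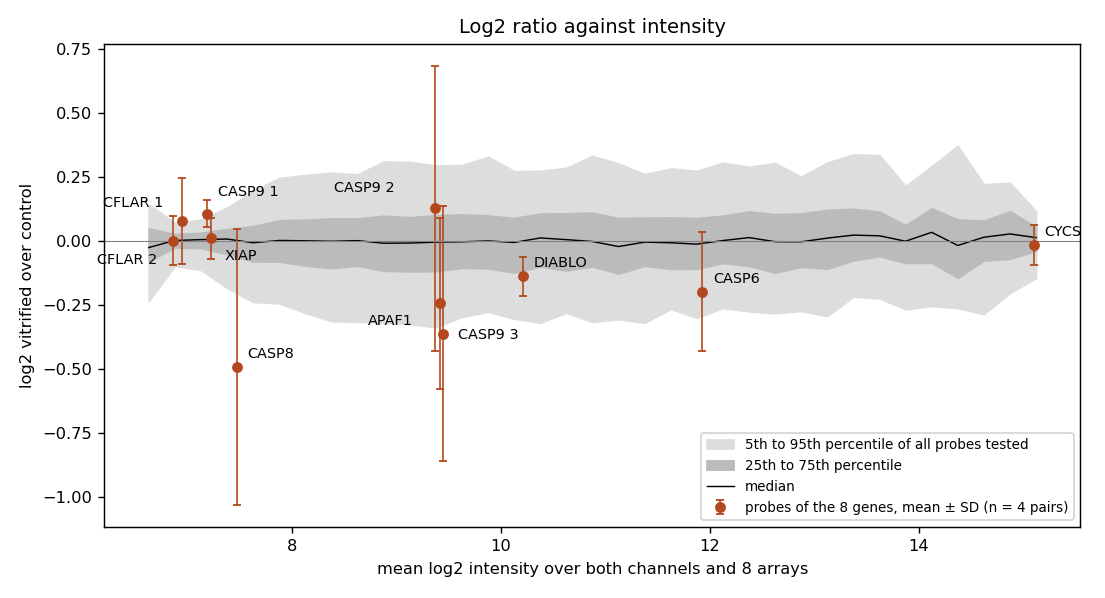
Mean log2 vitrified over control (vertical axis, bars are ± SD over 4 dye-swap pairs) against mean log2 intensity (horizontal axis) for the 11 probes, over the percentiles of all probes tested in bins of intensity. The means of CASP8 and CASP9 probe 3 lie below the 5th percentile of probes of like brightness, with SDs of 0.54 and 0.50, and those of CASP9 probe 1 and CFLAR probe 1 above the 95th.

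CASP8 and CASP9 probes 2 and 3, that is 3 of 11 probes, had an SD between pairs of at least 0.4, against 7.44% of all probes tested, at a limit chosen after the values were seen. That share was not taken among probes of like brightness. By pair, the median of the 11 probes was -0.054, -0.078, -0.23 and 0.041 in pairs 1 to 4. Of the 11 probes 8, 7, 7 and 4 were below 0, against 48.6%, 50.3%, 47.8% and 50% of all probes tested. The median of all probes tested stayed within 0.0066 of 0 in each pair.

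Averaging arrays by the replicate numbers of the labels changed the errors and not the ratios. In that limma fit 6 of 11 probes had an unadjusted p under 0.05, against 14.8% of all probes, and 0 of 11 had an adjusted p under 0.05, against 0% of all. CASP8 then had a limma adjusted p of 0.109, equal to the lowest on the array. Those numbers average pair 1 with pair 3 and pair 2 with pair 4. For CASP8 these averages were -0.51 and -0.47, so the 4 pair values, from -1.13 to 0.19, left almost no spread in that fit. The 2 swapped arrays of a pair carry different numbers, so that fit also enters them as separate replicates. Where neighbouring areas hold the same pools, its p-values, and the counts under 0.05 with them, rest on too small an error.

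The wider pathway was described with 5 lists, of which 53 of 68 genes had a probe and 49 were tested. Across the lists 0 of 49 genes passed the adjusted test. At an unadjusted p under 0.05 there were 12 of 62 probes, 19.4%, against 7.7% of all probes tested. In the fit limited to probes above background on all 8 arrays in both channels, it was 1127 of 11329 probes. The lists were chosen with earlier results of these data known, so this share is no test of the pathway. Of other caspases 4 of 11 genes were measured. The median of those 4 was 0.020. CASP4, an inflammatory caspase, was at -0.048 ± 0.13, with its other tested probe at 0.056, and CASP2 was at 0.042 ± 0.14. Of other inhibitors of apoptosis 5 of 7 were tested, with a median of 0.032. BIRC5 (survivin), which also serves chromosome segregation, was at -0.18 ± 0.16 (limma adjusted p = 0.656), with its other probe at -0.056. BIRC7 was at 0.053 ± 0.065.

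Death receptors and adaptors had 14 of 18 genes tested and a median of 0.0017. TNFRSF21, death receptor 6, had pair values of -0.46, -0.089, -0.42 and -0.45, with a mean of -0.35 ± 0.18 (SD, n = 4 pairs; limma adjusted p = 0.492). FAS, the best-known receptor upstream of caspase 8, had 0.16, 0.24, 0.19 and 0.044, with a mean of 0.16 ± 0.084 (limma adjusted p = 0.557). All 4 pairs of TNFRSF21 were thus below 0, as for 7.49% of all probes tested, and all 4 of FAS above it, as for 8.44%. Both genes were named for a small p over these same pairs, which favours a constant sign. PEA15, a death effector domain protein that the naming rule did not pick and that was chosen with its value known, was at 0.11 ± 0.062 (limma adjusted p = 0.628). Its other probe was at 0.15.

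Other intermembrane factors and apoptosome regulators had 10 of 14 genes tested and a median of 0.081. PTMA (prothymosin alpha), known in human cells to restrain apoptosome formation, had pair values of 0.18, 0.079, 0.27 and 0.32, with a mean of 0.21 ± 0.11 (SD, n = 4 pairs; limma adjusted p = 0.514). Its other probe was at 0.16, and processed copies of this gene may share the signal. APIP, which binds APAF1 and is also an enzyme of methionine salvage, was at -0.14 ± 0.095 (limma adjusted p = 0.635), with its other probes at -0.13 and -0.022. ARMC10, outside that rule and chosen with its value known, was at -0.26 ± 0.22 (limma adjusted p = 0.635).

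Caspase substrates and execution factors had 16 of 18 genes tested and a median of 0.0078. DFNA5 (gasdermin E), a pore-forming protein, had the smallest p of the 49 genes. Its pair values were -0.38, -0.23, -0.39 and -0.45, with a mean of -0.36 ± 0.097 (SD, n = 4 pairs; limma adjusted p = 0.464). XKR8, the scramblase that caspase cleavage turns on to expose phosphatidylserine, had 0.27, 0.19, 0.13 and 0.13, with a mean of 0.18 ± 0.067 (limma adjusted p = 0.495). Each of these genes kept 1 sign in all 4 pairs, in opposite directions, where 15.9% of all probes tested kept 1 sign. They too were named for a small p over these pairs, which favours a constant sign. Also chosen with values known, ROCK1, the kinase behind membrane blebbing, was at 0.21 ± 0.13 (limma adjusted p = 0.557), and PARP1, a DNA repair enzyme cut by caspases, was at -0.24 ± 0.17 (limma adjusted p = 0.564).

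**Figure D5:**
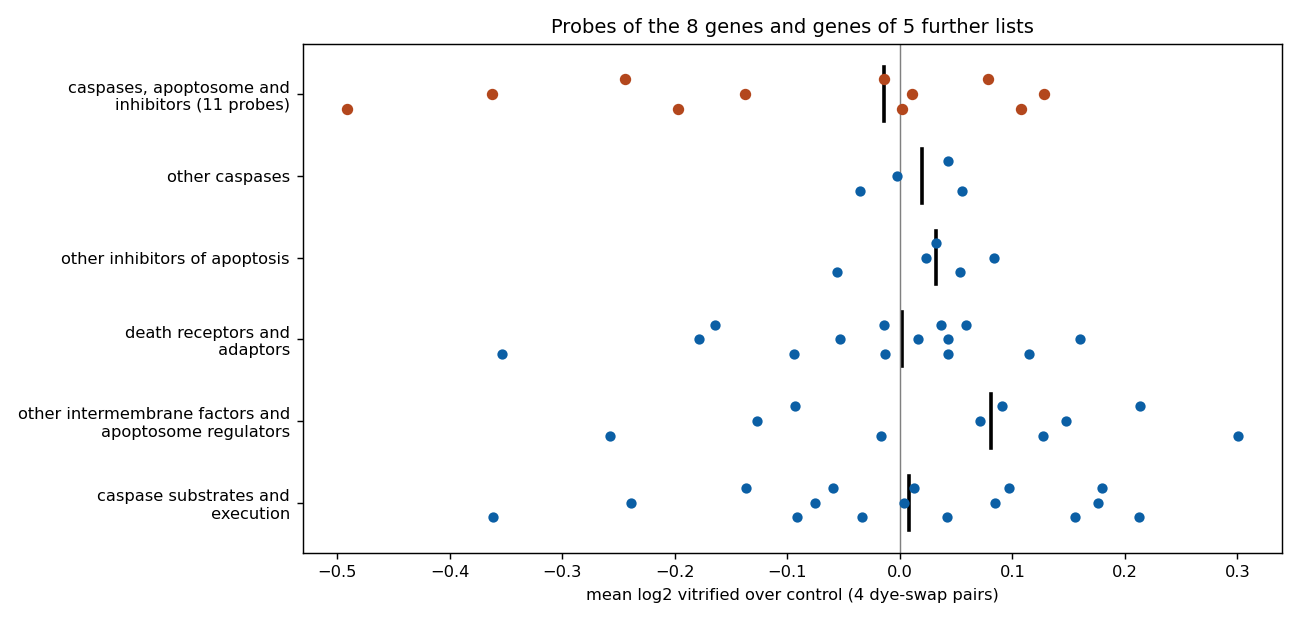
Mean log2 vitrified over control for the 11 probes of the 8 genes (top row) and for the tested genes of 5 further lists, 1 point per gene at its brightest tested probe, with black bars at the medians. The medians lie between -0.015 and 0.081, and the lowest points of the top and bottom rows are CASP8 at -0.49 and DFNA5 at -0.36.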

How the data were processed

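In the deposited scanner output, per the file headers, each spot has a mean intensity and a local background in Cy3 and in Cy5, without normalization. Per the labels' protocols, RNA was amplified in successive T7 rounds before labelling, which can change relative levels. The authors' deposited value table holds log2 values. Set against the scanner ratios it was read as log2 vitrified over control (r 0.679 to 0.834, slopes 0.937 to 1.29, column medians -0.0102 to 0.0104); its normalization stays unknown.

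Mean intensities, with the median local background, were corrected with normexp (offset 50) and loess-normalized within arrays with limma 3.58.1 (R 4.3.3), giving control spots weight 0. Of 45212 named spots, 43794 were gene probes. Median intensity was 106.5 to 243.3 in vitrified and 126.0 to 216.3 in control channels, and 72.3% to 79.2% of probes were above background, except 28.0% on area 1 of the second slide, where 1 negative control spot raised the limit. The number of arrays limits the precision. A probe was tested when above background on at least 4 of 8 arrays in either group. Annotation gave 21790 probes 1 symbol, 0 several and 22004 none. Tests were limma's lmFit and eBayes on 4 pair means against 0, with Benjamini-Hochberg adjustment over all probes tested, checked on simulated data. Exact sign-flip tests ran over the 4 pairs. The labels call replicates biological, and nothing else says that pools came from separate cultures, so p-values measure only the spread between these pools. Every probe of the 8 genes is given. Of each further list, genes past the adjusted p were to be named, or else the 2 with the smallest p, 1 probe per gene. The members and lists were chosen with earlier results of these data known. Alternatives covered replicate definition, slide, background, normalization, filters, deposited values and each pair left out.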

Additional observations from a re-analysis of the deposited data

How the results depend on the processing

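None of the 11 probes reached an adjusted p under 0.05 in any of the 17 alternatives run, and 170 of 182 alternative values kept the sign of the main value. Alternatives that changed only the replicate definition, the slide block or the probe filter return the main ratio by construction. Only the others could turn a sign, so the share of kept signs overstates how far the signs were tried. The signs of CASP8, CASP6, APAF1, DIABLO and probes 1 and 3 of CASP9 held in all alternatives. The 12 turned signs belonged to means near 0 or to CASP9 probe 2 (EMBV3_06676). With the first slide alone, CASP9 probe 2 was at -0.032 and XIAP at -0.046, and with the second slide alone CYCS was at 0.042. With the authors' deposited values XIAP was at -0.013 and the first CFLAR probe (EMBV3_07116) at -0.074, and without background correction the second CFLAR probe (EMBV3_30430) was at -0.023. Leaving out 1 pair at a time gave -0.12 to 0.27 for CASP9 probe 2, -0.047 to 0.016 for CYCS, -0.023 to 0.040 for XIAP, -0.00044 to 0.13 for the first CFLAR probe and -0.027 to 0.031 for the second. The cause was not tested. Requiring signal above background on all 8 arrays in both channels left 6 of the 11 probes, by construction the brighter ones, with a median of -0.17, against -0.0020 over the 11329 probes that passed the same filter. Over all probes, treating every array as its own sample gave 1043 calls with the replicate number as a block (replicate block, estimated correlation -0.112) and 597 without it, against 0 over pairs and 0 in the other alternatives, where 1127 to 5174 probes had an unadjusted p under 0.05. If neighbouring areas hold the same pools, both fits count each pair of pools as 2 samples. With the slide as a block, CASP8 had a limma adjusted p of 0.689. Depth of signal limits XIAP, CFLAR and CASP9 probe 1, whose median intensities were 1.02 to 1.23 times the background limit. It also limits CASP8, at 1.08 times in vitrified and 1.78 times in control pools. For CASP8, 4 of 8 vitrified arrays were above the limit, and 6 of 8 with the limit from the median and MAD.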
